A study of Canis lupus familiaris with 186 samples.

Results

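Osteosarcomas of dogs, malignant bone tumors whose cells make osteoid, were compared by the level of 2 transcripts of dividing cells. MKI67 encodes the nuclear Ki-67 antigen, which dividing cells carry and resting cells lack, and TOP2A encodes topoisomerase II alpha, which untangles chromosomes and is a target of doxorubicin. The score of a tumor was the mean z-score of log2(CPM + 1) of these 2 genes, where CPM is the count of a gene divided by the total of its library and multiplied by 1000000. Of 186 dogs, the 47 with the highest scores formed the high group and the 47 with the lowest scores formed the low group, 25% of the dogs each, and the other 92 formed the middle. The groups were therefore chosen by the measured levels of MKI67 and TOP2A, which are described but not tested.

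The libraries came from primary limb tumors of companion animals of both sexes, various breeds and a wide span of ages. Staging had found no metastasis in these dogs. Their labels name 2 trials, COTC021 and COTC022, with 93 dogs each. Tumors were sampled before any therapy, and the dogs were later randomized to carboplatin with or without rapamycin. RNA was taken from whole tumor tissue, so each library mixes tumor cells with bone, stroma, vessels and immune cells. In such bulk samples, fewer cells of a type and less RNA per cell cannot be told apart. Each dog gave 1 library.

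Cell division runs through a fixed order of steps. In G1, cyclin D with CDK4 or CDK6 and then cyclin E with CDK2 phosphorylate the retinoblastoma protein and release E2F factors, which turn on the genes of DNA replication. After S phase, the factors B-MYB and FOXM1 turn on the genes of mitosis, among them cyclin B, the Aurora and Polo-like kinases and the kinetochore, while CDK inhibitors and growth arrest genes restrain these steps. Osteosarcomas are known for loss of RB1 and for gains of MYC.

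Depth ranged from 6587634 to 27420867 counts per library, and the mean log2 total was 0.114 higher in the high than in the low group (permutation test over dogs, two-sided p = 0.269). The high group held 30 dogs of COTC021 and the low group 19 (Fisher's exact test, two-sided p = 0.0384), so the trial was a term of the fit. In 50 libraries the column name has a doubled separator, and these were deeper (median 19440456 counts, the others 9851682). They made up 14 of the high and 9 of the low group (Fisher's exact test, two-sided p = 0.337).

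MKI67 ranged from 5.42 to 119 CPM in the low group with a median of 57.2, and from 128 to 471 CPM in the high group with a median of 267. TOP2A ranged from 23.3 to 248 CPM with a median of 84.9 in the low group, and from 205 to 657 CPM with a median of 344 in the high group. The middle dogs had medians of 125 CPM for MKI67 and 198 CPM for TOP2A. The score had no gap at either limit. The highest score in the low group was -0.469 (MKI67 80.4 and TOP2A 144 CPM) and the lowest among the middle dogs was -0.453 (61.7 and 184 CPM). The highest score in the middle was 0.662 (228 and 241 CPM) and the lowest in the high group was 0.663 (128 and 397 CPM).

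**Figure D1:**
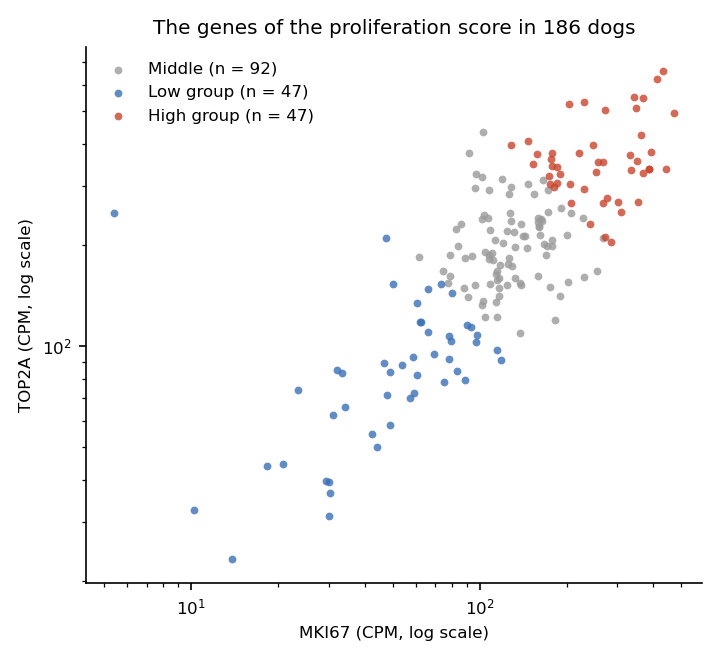
Level of MKI67 and TOP2A in CPM on log scales, 1 point per dog, coloured by group of the score that was made from both. The genes rise together over 186 dogs (Spearman's rho 0.76), and 1 dog of the low group lies far from the others, with 5.42 CPM of MKI67 and 248 CPM of TOP2A.

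The score genes parted in 1 library of COTC022. It had the lowest MKI67 of all 186 dogs, at 5.42 CPM, but the highest TOP2A of the low group, at 248 CPM. Its z-score of MKI67 minus that of TOP2A was -4.58, and the next lowest such value was -1.58. Other genes of division were also high in it: BUB1 was at 72.0 CPM and CCNB1 at 97.0 CPM, ranks 1 and 2 of the 47 low dogs. Of 213 cell cycle genes, 84 lay above the median of the high group in this dog, and 193 above that of the low group. The rule placed it in the low group, and without it the genes past 3-fold numbered 147 higher and 218 lower, in place of 123 and 196.

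The high group was marked by higher levels of nearly the whole replication and mitosis program and, over all dogs, by lower levels of many genes of connective tissue, vessels, macrophages, antigen presentation and muscle, counts that differed between subsets. Of 13420 genes tested with limma, 2901 were higher (21.6%) and 3430 lower (25.6%) in the high group at an adjusted p under 0.05. Above 3-fold, 123 genes were higher (0.917%) and 196 lower (1.46%). Higher genes made up 45.8% of the calls, but 71.1% when libraries were scaled by their totals alone, which moved the median log2 difference of all genes by 0.18, and 27.4% without the filter on low counts, which moved it by -0.16. All log2 differences below are high minus low, ± SE, scaled by TMM (trimmed mean of M-values), while CPM levels are scaled by library totals, and pairs of medians give the low group first. Among the 100 genes of lowest p, 99 were higher in the high group, and 71 of the 100 belong to the cell cycle lists described next.

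The share of all 13420 genes called gives the background for counts in subsets and alternatives. Genes higher and lower made up 16.6% and 17.4% within COTC021, 10.9% and 11.4% within COTC022, 3.87% and 2.7% within the libraries with a doubled separator, and 18.6% and 21.4% within the other libraries. The clusters of GS-1, a published signature, were made here from 27 of its genes. Genes higher and lower made up 11.3% and 8.38% within the high GS-1 cluster and 13.4% and 14.4% within the low GS-1 cluster. With the GS-1 cluster as a term they were 18.4% and 21.9%, with summed host cell genes as terms 13.7% and 15.2%, with library totals 35.4% and 14.4%, with edgeR 22.5% and 25.8%, and with DESeq2 22.7% and 26.5%.

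Of the 213 listed cell cycle genes, all of which passed the filter on low counts, 200 were higher and 1 lower, with a median log2 difference of 1.20. Over all 13420 genes, 21.6% were higher and the median was -0.04. Of the cell cycle genes, 45 were higher by over 3-fold, and they made up 36.6% of the 123 genes past that limit.

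Entry into replication begins with licensing, when the origin recognition complex, CDC6 and CDT1 load the MCM helicase. All 19 licensing and helicase genes were higher, with a median log2 difference of 1.18. ORC1, the largest subunit of the origin recognition complex (chromosome 15, 9008666 to 9038436, positions here and below on the build UU_Cfam_GSD_1.0), ranged from 1.68 to 24.4 CPM in the low group with a median of 5.41, and from 10.9 to 100.1 CPM in the high group with a median of 20.9. The lowest high dog was exceeded by 6 low dogs, and the log2 difference was 1.97 ± 0.17 (SE, n = 47 and 47, limma, adjusted p = 3.55e-22). CDC6 had medians of 9.74 and 37.4 CPM and a log2 difference of 1.75 ± 0.14 (adjusted p = 1.51e-23). CDC45, which joins the helicase when origins fire, had medians of 6.03 and 24.1 CPM and differed by 1.87 ± 0.16. MCM2, a helicase subunit used as a marker of licensed cells, had medians of 44.5 and 137 CPM and differed by 1.55 ± 0.14, and 47 of 47 high dogs lay above the low median.

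At the fork, 27 of 29 genes of the polymerases, clamp and nucleotide supply were higher, with a median of 0.89. POLE, the catalytic subunit of the leading strand polymerase, ranged from 4.53 to 72.3 CPM in the low group (median 20.2) and from 27.4 to 156 CPM in the high group (median 65.2), a log2 difference of 1.58 ± 0.13 (adjusted p = 1.45e-23). PCNA, the sliding clamp, had medians of 82.1 and 176 CPM and a smaller difference of 0.89 ± 0.11. The nucleotide enzymes TK1 and RRM2 differed by 1.38 ± 0.15 and 1.25 ± 0.15.

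Genes of homologous recombination and fork protection were higher in 22 of 23 cases, with a median of 1.11. CLSPN, the checkpoint adaptor that lets ATR activate CHK1, ranged from 1.52 to 28.0 CPM in the low group (median 7.97) and from 15.2 to 89.5 CPM in the high group (median 29.3). Its log2 difference was 1.81 ± 0.13 (adjusted p = 2.19e-26), and 27 high dogs lay above every low dog. BRCA1 differed by 1.74 ± 0.14 and POLQ, the polymerase of theta-mediated end joining, by 1.59 ± 0.16, with medians of 3.79 and 13.2 CPM.

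The G1 and S regulators divided. Of 21, 14 were higher and 1 lower, with a median of 0.69. Among E2F factors, the activator E2F1 had medians of 16.2 and 39.8 CPM (1.20 ± 0.16, adjusted p = 1.15e-10), and the atypical repressor E2F8 had medians of 4.94 and 19.1 CPM (1.70 ± 0.16, adjusted p = 2.49e-18). SKP2, which targets the CDK inhibitor p27 for destruction, differed by 1.31 ± 0.15. CDK4 had medians of 198 and 323 CPM and differed by 0.50 ± 0.10. The member that was lower was RBL2, which encodes the p130 pocket protein of resting cells, with medians of 71.2 and 45.8 CPM (-0.69 ± 0.13, adjusted p = 3.1e-06). CDK4 and RBL2 were named after their values were seen.

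The cyclins CCND1 and CCNE1 and the pocket protein gene RB1 did not pass the test. CCND1, cyclin D1, had medians of 18.6 CPM in the low and 21.8 CPM in the high group, with the highest dog at 79.3 and 270.0 CPM (0.03 ± 0.19, adjusted p = 0.905). CCNE1, cyclin E1, had medians of 5.36 and 8.22 CPM (0.24 ± 0.14, adjusted p = 0.146). It passed when the library of lowest MKI67, which also had the highest CCNE1 of the low group at 33.8 CPM, was left out (0.32, adjusted p = 0.0376), and with library totals (0.42, adjusted p = 0.00859). RB1 had medians of 42.0 and 47.0 CPM and differed by -0.09 ± 0.13 (adjusted p = 0.604), a sign that turned with library totals (0.09). A p that misses the threshold does not show that these levels were alike.

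Of 39 mitotic cyclins, kinases and APC/C genes, 38 were higher with a median of 1.50, and 18 of them by over 3-fold. BUB1, a kinase of the spindle checkpoint (chromosome 17, 35386576 to 35429599), ranged from 3.35 to 72.0 CPM in the low group with a median of 12.1, and from 31.8 to 112 CPM in the high group with a median of 55.3. The lowest high dog was exceeded by 3 low dogs. Its log2 difference of 2.03 ± 0.13 had an adjusted p of 1.02e-30. PLK1, the Polo-like kinase of mitotic entry, had medians of 13.0 and 59.2 CPM and differed by 1.94 ± 0.15 (adjusted p = 5.81e-24). CCNB1 (cyclin B1) had medians of 16.5 and 67.1 CPM, FOXM1 16.6 and 63.4 CPM, AURKA 12.7 and 45.6 CPM, and CDK1 40.4 and 111 CPM, with log2 differences of 1.83, 1.84, 1.62 and 1.36.

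All 28 centromere and kinetochore genes were higher (median 1.25). CENPF, a kinetochore protein of G2 and mitosis, ranged from 13.0 to 134 CPM in the low group (median 44.0) and from 35.0 to 658 CPM in the high group (median 161), and 35 high dogs lay above every low dog (1.89 ± 0.14, adjusted p = 2.1e-27). MIS18A, which helps to load the centromeric histone CENP-A, differed by 1.90 ± 0.18. Of 31 spindle, motor and cytokinesis genes, 30 were higher (median 1.52). DLGAP5, a microtubule protein of the spindle, ranged from 2.29 to 120.3 CPM in the low group (median 23.7) and from 59.0 to 247 CPM in the high group (median 103), a log2 difference of 2.11 ± 0.15 (adjusted p = 2.54e-27). The kinesins KIF18B and KIF20A differed by 2.07 ± 0.16 and 1.94 ± 0.15.

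The spindle gene that did not pass was NUSAP1, a microtubule protein of the mitotic spindle, named after its values were seen. It ranged from 66.4 to 305 CPM in the low group with a median of 158, and from 80.2 to 285 CPM in the high group with a median of 162. The groups overlapped over nearly their whole range, with a median of 166 CPM in the middle dogs, and the log2 difference was -0.11 ± 0.08 (adjusted p = 0.254), or 0.07 with library totals.

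Condensin, chromatin and nuclear envelope genes were higher in 22 of 23 cases (median 0.95). NCAPG, a subunit of condensin I, which compacts chromosomes, ranged from 9.69 to 119 CPM in the low group (median 36.6) and from 67.4 to 288 CPM in the high group (median 146). It differed by 1.78 ± 0.13 (adjusted p = 5.34e-28), with 36 high dogs above every low dog. NCAPH, of the same complex, differed by 1.54 ± 0.11, and UHRF1, which brings the maintenance DNA methyltransferase to replicated DNA, by 1.54 ± 0.14.

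**Figure D2:**
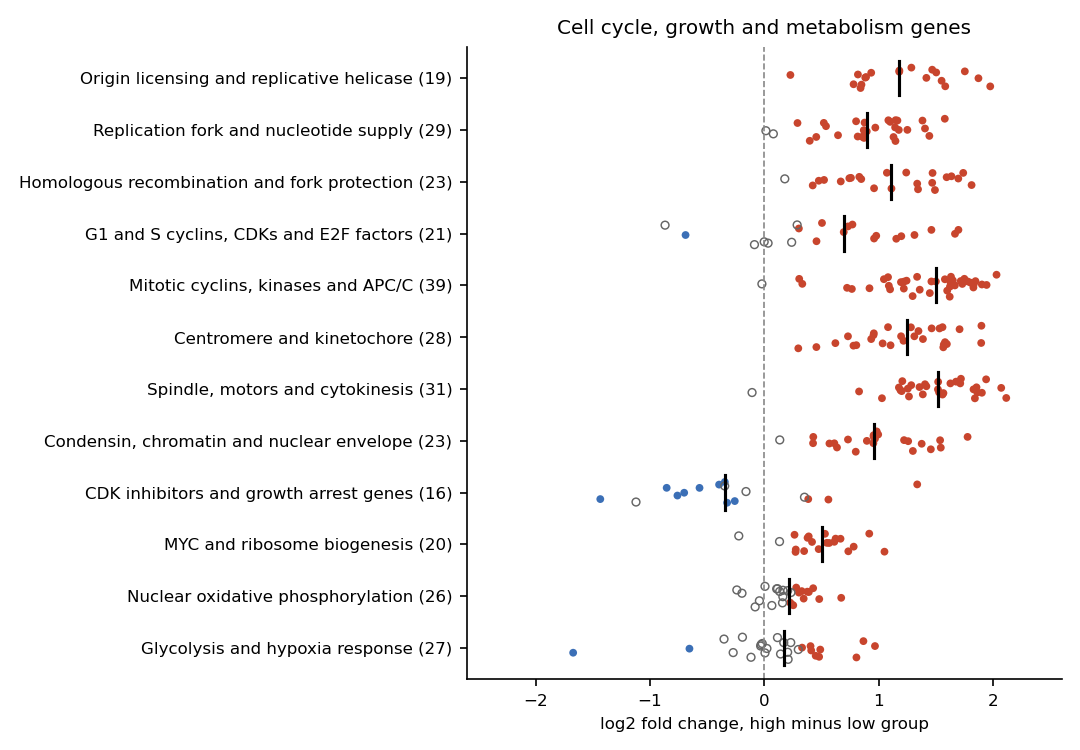
Log2 fold change of the high over the low group (x axis) for each tested gene of each list, with the number of genes in parentheses; filled points passed an adjusted p of 0.05 (red higher, blue lower), open points did not, and black bars are medians. The medians of the 8 cell cycle lists lie between 0.69 and 1.52, that of CDK inhibitors and growth arrest genes at -0.35.

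The differences were graded over the cohort. From the low group to the middle the median log2 difference of the 213 cell cycle genes was 0.73, and from the middle to the high group 0.48. For 203 of them both steps were positive, and each step passed for 188, where 8.96% of all genes passed upward in the first step and 11.1% in the second. The score of the middle dogs had an SD of 0.32 times that over all dogs. Slopes here and below are log2 changes per SD of the score over all dogs, not differences of groups. Among the 92 middle dogs alone, which entered neither group, the slope on the score was positive for 203 of the 213 genes. It passed for 89 upward and for 0 downward. Over all 13420 genes, 200 passed upward (1.49%) and 31 downward (0.231%) there, so cell cycle genes made up 44.5% of the upward calls.

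Restraints of the cell cycle moved in both directions. Of 16 CDK inhibitors and growth arrest genes tested of 17 listed, 9 were lower and 3 higher, with a median of -0.35. With library totals 4 were lower and 4 higher (median -0.17), where 14.4% of all genes were lower and 35.4% higher (median 0.14). Host cell terms left 3 lower and 1 higher. GADD45A, a growth arrest gene induced by stress and DNA damage, ranged from 10.2 to 285 CPM in the low group (median 36.0) and from 3.77 to 78.2 CPM in the high group (median 16.4), with 7 high dogs above the low median (-1.43 ± 0.22, adjusted p = 2.77e-08). BTG2, an antiproliferative gene, differed by -0.85 ± 0.20 (adjusted p = 0.0002). Those higher were CDKN3, a phosphatase that acts on CDK1 and CDK2 (1.34 ± 0.19), CDKN2C (0.56 ± 0.17) and CDKN2D (0.38 ± 0.14), inhibitors of CDK4 and CDK6 named after their values were seen. CDKN1A, the CDK inhibitor p21, had medians of 69.2 and 64.5 CPM and a difference of -0.35 ± 0.17 (adjusted p = 0.0897).

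CDKN2A, which encodes p16 and ARF (chromosome 11, 41337054 to 41366301), varied widely within the high group, as it did among the middle dogs. Its level was under 1 CPM in 32 of 47 high dogs and 19 of 47 low dogs, with medians of 0.406 and 1.36 CPM. At the same time 6 high dogs exceeded the highest low dog, which had 23.1 CPM, and the highest of the 6 reached 93.4 CPM. Such levels were not particular to the high group, as some middle dogs also exceeded 23.1 CPM, up to 122 CPM. The sign of the difference depended on the tool: -1.12 ± 0.64 with limma (adjusted p = 0.142), 1.14 with edgeR (adjusted p = 0.0781) and 1.12 with DESeq2 (adjusted p = 0.0571). Neither direction passed.

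**Figure D3:**
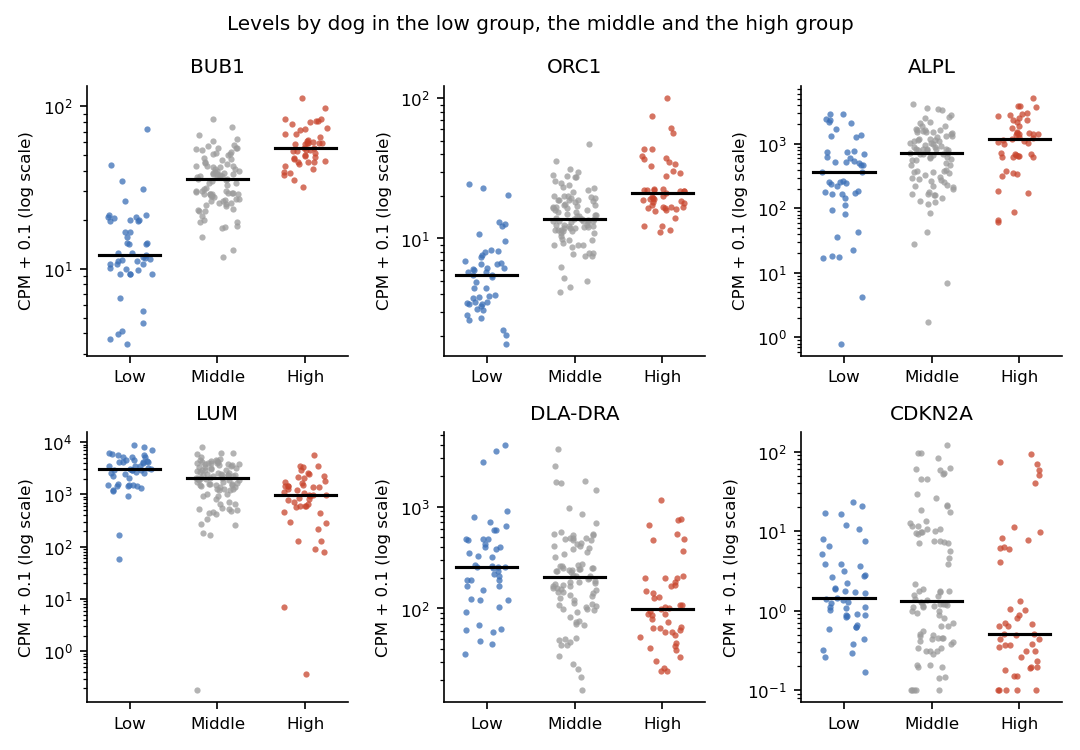
Level of 6 genes in CPM + 0.1 on a log scale, 1 point per dog, in the low group (n = 47), the middle (n = 92) and the high group (n = 47); black bars are medians. BUB1 and ORC1 overlap little between the high and low groups, and ALPL, LUM and DLA-DRA overlap widely. CDKN2A in the high group is under 1 CPM in 32 dogs and above every low dog in 6, and some middle dogs also exceed every low dog.

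Of 20 genes of MYC and ribosome biogenesis, 18 were higher with a median of 0.50, 17 within COTC021, 10 within COTC022 and 2 within the libraries with a doubled separator. NOP2, a methyltransferase of ribosomal RNA, had medians of 31.4 and 72.6 CPM (1.05 ± 0.13, adjusted p = 1.26e-12), and FBL, the fibrillarin of the nucleolus, had medians of 86.3 and 176 CPM (0.78 ± 0.11). MYC itself ranged from 8.77 to 68.2 CPM in the low group (median 21.3) and from 12.6 to 371 CPM in the high group (median 32.1), with 6 high dogs above every low dog (0.47 ± 0.17, adjusted p = 0.013). Its sign turned within the 50 libraries with a doubled separator (-0.32, adjusted p = 0.505). The dog with the highest MYC of the high group, from COTC021, also had the lowest RB1 (3.24 CPM), the highest CDKN2A (93.4 CPM) and the highest CCNE1 (25.1 CPM) of that group.

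Of 26 nuclear genes of oxidative phosphorylation, 12 were higher and 0 lower (median 0.21). The count was 20 with library totals, 13 within COTC021, 1 within COTC022, 0 within the libraries with a doubled separator and 2 within the low GS-1 cluster. Among those higher was CYC1, cytochrome c1 of complex III, with medians of 85.2 and 168 CPM (0.67 ± 0.12). Of 27 genes of glycolysis and the hypoxia response, 9 were higher and 2 lower (median 0.17), where 21.6% and 25.6% of all genes were. Those higher numbered 13 with library totals, 4 within COTC021, 1 within COTC022, 2 within each GS-1 cluster and 2 with host cell terms. The glucose transporter SLC2A1 had medians of 45.8 and 79.7 CPM (0.80 ± 0.19) and the hexokinase HK2 of 17.6 and 35.7 CPM (0.87 ± 0.23). The lower genes were CA12, a carbonic anhydrase of the cell surface (-1.67 ± 0.57, adjusted p = 0.0111), and HIF1A, the oxygen-regulated transcription factor (-0.66 ± 0.14, adjusted p = 6.75e-05). With the summed muscle, adipocyte, fibroblast, vessel and macrophage genes as host cell terms, CA12 was at 0.24 (adjusted p = 0.764).

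Bone genes did not move together. Of 18 osteoblast lineage genes tested of 20 listed, 6 were higher and 2 lower, and 10 did not pass. Those higher included the transcription factors SP7, RUNX2 and DLX5 (0.77 ± 0.26), and ALPL and IBSP, while SPARC and SPP1 were lower. DLX5 and SPP1 were named after their values were seen. The median of the list was 0.45 with limma but -0.04 with edgeR and -0.05 with DESeq2, where 4 were higher and 4 lower.

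ALPL, the alkaline phosphatase of mineralizing osteoblasts (chromosome 2, 76961389 to 76976632), ranged from 0.696 to 2945 CPM in the low group with a median of 369, and from 62.1 to 5097 CPM in the high group with a median of 1209. The groups overlapped widely, and 39 of 47 high dogs lay above the low median (1.71 ± 0.41, adjusted p = 0.000281). SP7, the osteoblast factor osterix, ranged from 0 to 74.8 CPM in the low group (median 15.8) and from 4.46 to 67.5 CPM in the high group (median 32.3) and differed by 1.45 ± 0.32 (adjusted p = 8.94e-05). With the summed host cell genes as terms, ALPL was at 1.34 (adjusted p = 0.0198) and SP7 at 0.82 (adjusted p = 0.0446), and with edgeR they were at 0.95 (adjusted p = 0.0117) and 0.67 (adjusted p = 0.021). RUNX2, the master factor of the lineage, had medians of 160.3 and 246 CPM (0.59 ± 0.15, adjusted p = 0.000771). IBSP, a sialoprotein of mineralizing bone, passed with limma (1.41 ± 0.58, adjusted p = 0.036) but was at 0.12 with edgeR (adjusted p = 0.829), where DLX5 also missed the threshold (0.26, adjusted p = 0.312).

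COL1A1, the main collagen of osteoid, had medians of 22308 and 19344 CPM (-0.57 ± 0.28, adjusted p = 0.0848). SPARC, osteonectin, had medians of 11732 and 7102 CPM (-0.99 ± 0.19, adjusted p = 6.75e-06), and SPP1, osteopontin, of 1858 and 1142 CPM (-0.81 ± 0.33, adjusted p = 0.0351). BGLAP, the late osteoblast product osteocalcin, had medians of 49.0 and 13.9 CPM and missed the threshold (-1.11 ± 0.51, adjusted p = 0.0633), but passed with edgeR (-1.15, adjusted p = 0.0289), as did COL1A1 (-0.62, adjusted p = 0.0349), and was at -1.17 without the library of lowest MKI67 (adjusted p = 0.0472). With library totals SPP1 missed the threshold (-0.62, adjusted p = 0.11). In the middle dogs, the slopes of ALPL (-0.71), SP7 (-0.75) and RUNX2 (-0.24), per SD of the score over all dogs, were negative and did not pass.

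Few cartilage and osteoclast genes passed. Of 13 cartilage matrix genes tested of 15, 2 were higher and 1, COMP, was lower (-1.42 ± 0.52, adjusted p = 0.0174). COL2A1, the collagen of cartilage, had medians of 3.19 CPM in the low and 27.4 CPM in the high group (2.59 ± 0.95, adjusted p = 0.0182). The highest dog of all, however, was in the low group with 49245 CPM, and edgeR gave -0.79 (adjusted p = 0.535). Above 1000 CPM were 6 high, 2 low and 8 middle dogs. SOX6, a factor of chondrocytes, differed by 0.81 ± 0.34 (adjusted p = 0.0375), which edgeR did not call (0.59, adjusted p = 0.0963). Of 13 osteoclast genes tested of 15, 1 passed, NFATC1, the master factor of osteoclast formation (-0.44 ± 0.12, with library totals -0.26 and not called), and ACP5, their tartrate-resistant phosphatase, had nearly equal medians of 1164 and 1161 CPM (-0.34 ± 0.51, adjusted p = 0.616).

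Of 20 fibroblast and matrix remodelling genes, 12 were lower and 0 higher (median -0.96). Within COTC021 13 were lower, within COTC022 3, and within the libraries with a doubled separator 0 were lower and 1 higher. LUM, the collagen-binding proteoglycan lumican (chromosome 15, 32098606 to 32106158), ranged from 58.0 to 8895 CPM in the low group (median 3122) and from 0.269 to 5634 CPM in the high group (median 982), and 4 high dogs lay above the low median (-2.16 ± 0.40, adjusted p = 3.17e-06). DCN, decorin, had medians of 1250.0 and 395 CPM (-2.23 ± 0.42), and PI16, a marker of adventitial fibroblasts, of 6.97 and 0.809 CPM (-3.19 ± 0.77). Of 18 vessel and mural cell genes, 14 were lower and 0 higher (median -0.74), with 10 lower with library totals, 13 within COTC021, 6 within COTC022, 3 within the high GS-1 cluster, and 0 lower and 1 higher within the libraries with a doubled separator. CLDN5, the claudin of endothelial junctions, had medians of 7.04 and 3.42 CPM (-1.72 ± 0.29, adjusted p = 2.15e-07). TEK, the angiopoietin receptor, differed by -1.33 ± 0.24, MYH11, smooth muscle myosin, by -2.29 ± 0.46, and PECAM1, an adhesion protein of endothelium, by -0.78 ± 0.21.

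Of 18 macrophage and monocyte genes, 15 were lower and 0 higher (median -0.95). Those lower numbered 4 within COTC021, 13 within COTC022, 0 within the libraries with a doubled separator, 0 within the high GS-1 cluster and 3 within the low GS-1 cluster. C1QB, a chain of complement C1q made by macrophages, ranged from 11.9 to 2019 CPM in the low group (median 138) and from 7.23 to 695 CPM in the high group (median 70.2), a difference of -1.25 ± 0.32 (adjusted p = 0.000645). CD163, the hemoglobin scavenger receptor of macrophages, had medians of 59.2 and 53.9 CPM (-0.87 ± 0.34, adjusted p = 0.028), and missed the threshold with library totals (-0.70, adjusted p = 0.0795). All 7 MHC class II genes tested of 10 listed were lower (median -1.33). Of these 7, 1 was lower within COTC021, 7 within COTC022, 0 within the libraries with a doubled separator, 0 within the high GS-1 cluster (median -0.32) and 0 with the summed host cell genes as terms (median -0.41). DLA-DRA, the dog class II alpha chain, ranged from 36.1 to 4039 CPM in the low group (median 255) and from 24.5 to 1164 CPM in the high group (median 97.7) and differed by -1.51 ± 0.30 (adjusted p = 1.12e-05). CD74, the invariant chain, and CIITA, the class II transactivator, differed by -1.25 ± 0.28 and -1.42 ± 0.32. The genes that made the GS-1 clusters include C1QB and VSIG4 of the macrophage list and DLA-DQA1 and DLA-DQB1 of the class II list. The counts within those clusters are therefore not independent of how the clusters were made.

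Lymphocyte genes were measured at low levels. Of 20 T and NK cell genes, 13 passed the filter on low counts, and 3 of these were lower (median -0.52), a share near the 25.6% of all genes. The count depended on the tool, with 11 lower with edgeR (median -1.71) and 6 with DESeq2 (median -0.78), and the median was 0.44 within the high GS-1 cluster. Those lower with limma were the granzyme GZMK (-1.73 ± 0.55), the chemokine receptor CXCR6 (-1.31 ± 0.48) and the adhesion receptor CD2 (-0.80 ± 0.34). CD3E, part of the T cell receptor complex, had medians of 3.30 and 1.93 CPM (-0.98 ± 0.46, adjusted p = 0.0705). All 3 B and plasma cell genes tested of 13 were lower, JCHAIN, which joins IgA and IgM (-1.04 ± 0.35), the B cell receptor inhibitor CD22 (-1.30 ± 0.35) and the secretory factor XBP1 (-0.57 ± 0.11). Of 17 interferon response genes tested of 21, 6 were lower and 0 higher (median -0.50), among them IFIT3 (-1.22 ± 0.36) and GBP5 (-1.18 ± 0.42). Of 5 neutrophil genes tested of 12, S100A12 and S100A9 were lower (-1.48 ± 0.50 and -1.34 ± 0.45), and MPO, the myeloperoxidase of granulocyte precursors, was higher (1.17 ± 0.31, adjusted p = 0.000768), at medians of 0.974 and 3.09 CPM. The 1 erythroid and marrow gene tested of 11, the transferrin receptor TFRC, was higher (0.51 ± 0.22, adjusted p = 0.0478). With edgeR the calls of TFRC (0.25), IFIT3 (-0.65) and S100A9 (-1.02) were lost and CD3E passed (-2.42, adjusted p = 0.000276), and with library totals CD2 (-0.62) was lost.

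Of the published GS-1 signature, 27 genes were tested, those left by the low-count filter of the paper. Of these, 24 were lower and 0 higher (median -1.13). Within COTC021 7 were lower, within COTC022 19, and within the libraries with a doubled separator 0. The signature came from earlier work that compared dog osteosarcomas with osteoblasts, and the paper linked it to outcome in these same dogs. CLEC12A, a lectin receptor of myeloid cells, had medians of 3.79 and 1.35 CPM (-1.48 ± 0.36), and DLA-DQB1, a class II beta chain, of 88.3 and 34.0 CPM (-1.49 ± 0.33). K-means on these genes, repeated here, put 62 of 186 dogs in the cluster of high GS-1. That cluster held 9 of 47 high dogs (19.1%), 30 of 92 middle dogs (32.6%) and 23 of 47 low dogs (48.9%), with high and low differing by Fisher's exact test (two-sided p = 0.00428). Within COTC021 the shares were 23.3% of 30 and 52.6% of 19 (Fisher's exact p = 0.0633), and within COTC022 11.8% of 17 and 46.4% of 28 (Fisher's exact p = 0.0232). They were 21.4% of 14 and 44.4% of 9 in the libraries with a doubled separator (Fisher's exact p = 0.363), and 18.2% of 33 and 50% of 38 in the others (Fisher's exact p = 0.00643). With this cluster as a term, 13 of the 27 genes were lower (median -0.55), and 7 of 18 macrophage genes (median -0.47). The cluster was made from these same 27 genes, among them C1QB and VSIG4 of the macrophage list. Smaller differences of such genes with this term are therefore partly built in. Cell cycle genes that passed upward numbered 190 of 213 within the high GS-1 cluster and 192 within the low GS-1 cluster.

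Muscle and fat genes had the most negative medians of all lists. Of 15 skeletal muscle genes, 14 were lower, each by over 3-fold (median -2.65). Those lower numbered 12 with edgeR, 14 within COTC021, 6 within COTC022, 0 within the libraries with a doubled separator and 0 within the high GS-1 cluster. Of 5 adipocyte genes tested of 10, 4 were lower (median -1.96), with the fatty acid carrier FABP4 at -2.96 ± 0.72 and the adipokine CFD at -2.87 ± 0.52. CKM, the creatine kinase of muscle, ranged from 0 to 20347 CPM in the low group (median 32.6) and from 0 to 4106 CPM in the high group (median 3.99), with 18 high and 4 low dogs under 1 CPM (-4.68 ± 0.95, adjusted p = 1.55e-05). The 15 muscle genes summed to over 1000 CPM in 7 low, 9 middle and 1 high library, and the sum had medians of 146, 78.0 and 53.3 CPM. Without these 17 libraries, CKM was at -3.91 (adjusted p = 9.68e-06), and 2696 genes were higher and 3134 lower.

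**Figure D4:**
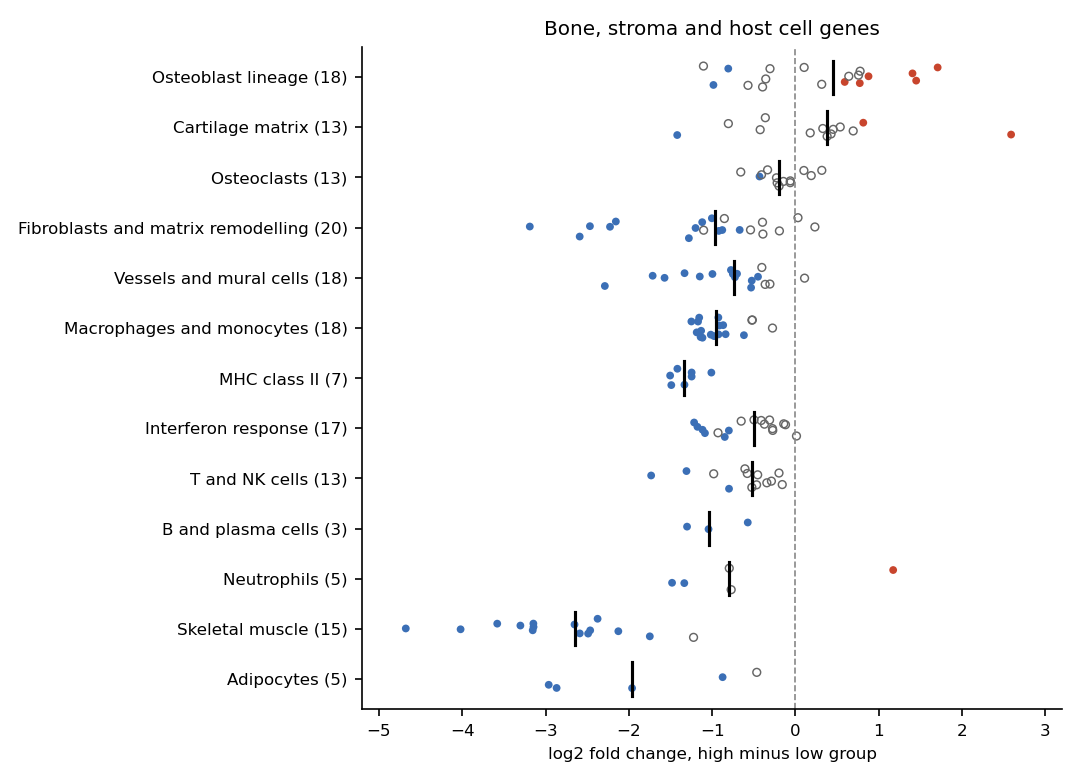
Log2 fold change of the high over the low group (x axis) for each tested gene of the lists of bone, stroma and host cells, with the number of genes in parentheses; filled points passed an adjusted p of 0.05 (red higher, blue lower), open points did not, and black bars are medians. In the fibroblast, vessel, macrophage, MHC class II and muscle lists 0 genes passed upward, while the osteoblast list holds genes that passed in both directions.

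The summed levels of the host cell lists give the scale of these differences. The macrophage list summed to a median of 1674 CPM in the low group (range 216 to 9867) and 963 CPM in the high group (range 141 to 4460), and 37 low dogs lay above the high median. The fibroblast list summed to medians of 18829 and 12789 CPM, the vessel list to 1522 and 1105 CPM, and the T and NK cell list to 57.4 and 47.4 CPM. The osteoblast list summed to nearly equal medians of 59400.2 and 59285 CPM, but COL1A1 and SPARC weighed far more in that sum than ALPL, SP7 or RUNX2. None of these lists had a gene at 0 in every dog. When the summed muscle, adipocyte, fibroblast, vessel and macrophage genes were added as terms, 1832 genes were higher and 2038 lower, of which 51 and 32 by over 3-fold. Cell cycle genes that passed upward then numbered 193 of 213 with a median of 1.00, and BUB1 was at 1.81. Of the GS-1 genes, 2 were then lower, a count partly fixed in advance because the macrophage sum holds the GS-1 genes C1QB and VSIG4. The part of the cell mixture in the other differences was not tested.

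The 12 largest positive differences of named genes lay between 2.18 and 3.24. IGF2BP1, a fetal RNA-binding protein, had medians of 0.476 CPM in the low and 33.1 CPM in the high group, with 28 low and 10 high dogs under 1 CPM (3.24 ± 0.96, adjusted p = 0.00302). It was at 4.94 within COTC021 (adjusted p = 0.00644) and 1.52 within COTC022 (adjusted p = 0.424), and the test of the difference between trials did not pass (adjusted p = 0.644). DLX1 and ZIC5, transcription factors of the embryonic nervous system, differed by 2.76 ± 0.43 and 2.70 ± 0.53. DDX43 and TDRD5, both genes of the germ line, differed by 2.57 ± 0.61 and 2.20 ± 0.41. SCML2, a Polycomb protein, had medians of 1.03 and 10.2 CPM (2.48 ± 0.45, adjusted p = 1.21e-06), and CEP72, a centrosome protein, of 1.28 and 8.85 CPM (2.37 ± 0.39, adjusted p = 9.48e-08). ELOVL2, an elongase of polyunsaturated fatty acids (2.41 ± 0.47), CRACD, an actin regulator (2.39 ± 0.59), DPYSL5, of growing axons (2.18 ± 0.57), the glutamate receptor GRM4 (2.18 ± 0.55) and COL2A1 complete the 12.

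Among the 12 largest negative differences, 7 were of skeletal muscle fibres: CKM, MYH2 (-4.02), ACTA1 (-3.58), MYL2 (-3.45), MYBPC1 (-3.30), TNNT1 (-3.19) and MYH1 (-3.16). With edgeR, MYL2 (-2.28, adjusted p = 0.0609) and MYH1 (-1.59, adjusted p = 0.141) did not pass. ITGBL1, a secreted protein with integrin-like repeats, ranged from 0.853 to 941 CPM in the low group (median 87.5) and from 0 to 429.5 CPM in the high group (median 5.24), and 42 of 47 low dogs lay above the high median (-4.25 ± 0.64, adjusted p = 1.06e-08). PRG4, the lubricin of joints, differed by -3.96 ± 0.92 and PDLIM3, a protein of the muscle Z-disc, by -3.57 ± 0.71, and PI16 is described above. MAP1LC3C, a relative of the autophagy protein LC3, had medians of 4.16 and 0.419 CPM (-3.35 ± 0.52, adjusted p = 2.89e-08).

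Of 24 targets of drugs that act on dividing cells, 17 were higher and 2 lower (median 0.46). The mitotic kinase AURKB differed by 1.33 ± 0.14, the checkpoint kinase TTK by 1.72 ± 0.13, and the spindle motor KIF11 by 1.53 ± 0.11, with medians of 45.5 and 134 CPM and 37 high dogs above every low dog. The lower ones were the survival proteins MCL1, with medians of 164 and 117 CPM (-0.54 ± 0.10, adjusted p = 3.61e-06), and BCL2L1 (-0.23 ± 0.08, adjusted p = 0.0129), whose medians of 12.0 and 12.1 CPM were nearly equal and which did not pass with library totals (-0.06, adjusted p = 0.614). MCL1 and BCL2L1 were named after their values were seen.

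Whole chromosomes also differed in level. For each dog, the median was taken over the genes of a chromosome of log2 CPM after TMM scaling, centred on the mean of all dogs per gene, and the groups were compared by a two-sided permutation test over dogs with adjustment over 39 chromosomes. The permutation test had no term for the trial, and this measure was chosen after the calls per chromosome had been seen. Of 39 chromosomes, 7 were lower and 6 higher in the high group at an adjusted p under 0.05. For each of these, the median log2 difference over its genes kept its sign within each trial. On chromosome 16, the level ranged from -0.467 to 0.426 in the low group with a median of 0.254, and from -0.57 to 0.575 in the high group with a median of -0.179. It differed by -0.24 (SD 0.248 in the low and 0.257 in the high group, adjusted permutation p = 0.00052), 41 of 47 high dogs lay below the low median, and 48.8% of its 254 genes were lower against 25.6% of all genes. Chromosomes 21, 32 and 18 differed by -0.24, -0.22 and -0.21 (adjusted permutation p = 0.00039, 0.00039 and 0.00078). For chromosomes 21 and 32 the unadjusted p of 2e-05 is the smallest that the permutations can give. Chromosome 11, which holds CDKN2A, differed by -0.16 (adjusted permutation p = 0.00595), and chromosomes 20 and 10 by -0.11 and -0.09.

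Of the higher chromosomes, chromosome 8 differed by 0.14 (adjusted permutation p = 0.000585), chromosome 34 by 0.13, chromosomes 15 and 4 by 0.11 and 0.11, chromosome 17 by 0.10 and chromosome 24 by 0.09. The median log2 difference over the genes of chromosome 16 was -0.28, and -0.29 without the genes of the cell cycle and host cell lists. It was -0.23 within COTC021, -0.35 within COTC022, -0.14 with the summed host cell genes as terms, and -0.11 with library totals, where the median of all genes was 0.14. With library totals the medians of chromosomes 20 and 10 turned to 0.04 and 0.07. Host cell terms moved the medians of chromosomes 34, 24 and 17 from 0.12, 0.06 and 0.07 to 0.04, 0.02 and 0.03. The slope over the middle dogs had the opposite sign for chromosomes 8 (-0.03), 15 (-0.03) and 10 (0.03). The copy number of these chromosomes was not analysed here.

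**Figure D5:**
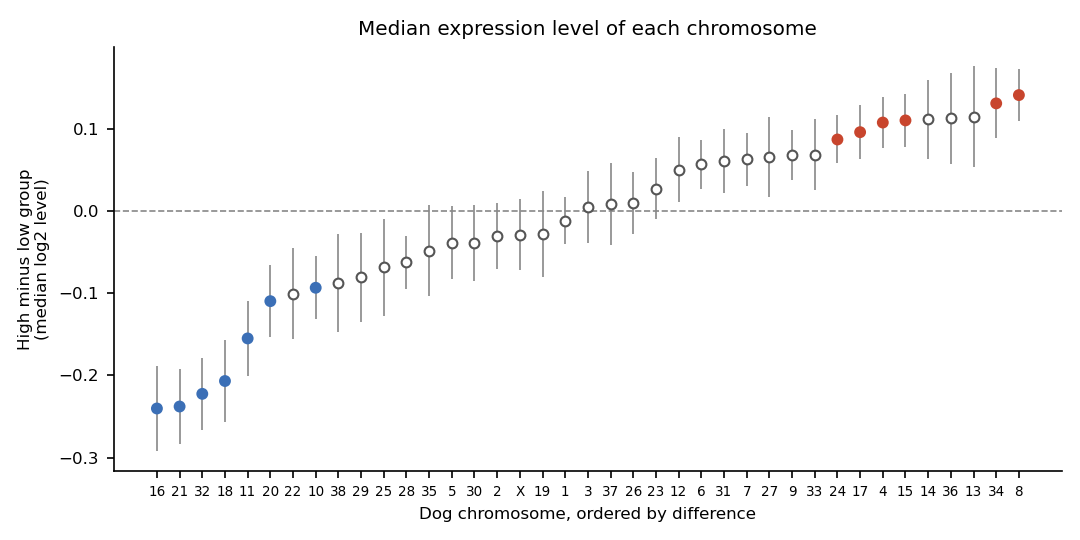
Difference between the high and the low group (median log2 level per dog, mean of 47 high dogs minus mean of 47 low dogs) for each dog chromosome; lines are the standard error of the difference, and filled points passed an adjusted p of 0.05. Chromosomes 16, 21, 32 and 18 lie lowest, at -0.24 to -0.21, and chromosome 8 highest, at 0.14.

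Tests of whether the contrast itself differed between subsets found few genes. With limma, 1 gene of 13420 differed between trials at an adjusted p under 0.05, with 1204 at an unadjusted p under 0.05. Between libraries with and without a doubled separator 0 passed, with 925 unadjusted. Cell cycle genes that passed upward numbered 194 of 213 in COTC021, 187 in COTC022, 156 in the 50 libraries with a doubled separator and 200 in the others.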

How the data were processed

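Per the labels, stranded mRNA libraries were sequenced from primary tumors, and the submitters' processing notes name cutadapt, STAR 2.7.0f and RSEM 1.3.1. The deposited values are the authors' expected counts per gene, not normalized, on the dog build GSD_1.0, and 3.07% were not whole. They were rounded here. Of 198 columns, 186 were used and 12 were not. Expected counts divide reads that map to several genes, and 769 identifiers share a symbol with another, which makes near-identical genes uncertain.

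The low-count filter of edgeR 4.0.16 (10 reads as the minimum count, a proportion of 0.5 and 5 as the large-group size) left 13422 genes, and Benjamini-Hochberg adjustment ran over 13420, without MKI67 and TOP2A. After TMM scaling, voom weights and linear models of limma 3.58.1 (R 4.3.3) had the 3 groups and the trial as terms, so the middle dogs share in the estimate of the spread. Alternatives used edgeR's quasi-likelihood test and DESeq2 1.42.0, other scalings, filters, cuts of the score and subsets. On simulated counts with the same dispersion for every gene, the fit called 14 of 50 genes changed 1.5-fold and 49 of 50 changed 2-fold. Of 13220 unchanged genes, 9 were called. The simulation did not cover genes of wider spread or the choice of scaling. GS-1 clusters were recomputed by K-means (scikit-learn 1.9.0, 200 starts) on z-scores of log2(CPM + 2), with CPM first quantile-normalized over the filtered genes. Permutation tests used 100000 resamples and were two-sided. Positions are those of RefSeq on UU_Cfam_GSD_1.0.

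The members, gene lists and tests were chosen with earlier results of these data known. The genes named are the score genes, the 12 largest positive and negative changes with a symbol and the same direction in both trials and groups of libraries, up to 6 genes of largest change per list, and 21 defining members. Disease-free interval, overall survival and the published clusters were not analysed here. Some genes that the rule names are not reported here. A planned search of promoters for motifs was not run. P-values measure the spread between dogs with 1 library each.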

Additional observations from a re-analysis of the deposited data

Results flagged for a closer look

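The contrast between the high and the low group differed between subsets for 2 genes in tests of the difference itself with limma. NPAS2, a circadian transcription factor, differed by 1.44 on the log2 scale between COTC022 and COTC021 (adjusted p = 0.0238), with -0.93 in COTC021 (adjusted p = 0.000457) and 0.49 in COTC022 (adjusted p = 0.0565). TFPT, a subunit of a chromatin remodelling complex, differed by 0.95 between the clusters of high and low GS-1 (adjusted p = 0.0246), with 0.53 in the high GS-1 cluster (adjusted p = 0.00524) and -0.39 in the low GS-1 cluster (adjusted p = 0.00837). Neither gene passed over all dogs (-0.25 and -0.06).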

How the results depend on the processing

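In the 24 alternatives, the cell cycle genes higher at an adjusted p under 0.05 numbered between 156 and 203 of 213, except for 89 in the slope over the middle dogs. The counts over all genes moved more. Scaling by library totals gave 4746 higher and 1926 lower, with 190 higher by over 3-fold. Without the filter on low counts, 9735 were lower and 319 by over 3-fold, of 30012 tested. COTC022 alone gave 1469 higher and 1532 lower, and COTC021 alone 191 higher by over 3-fold. The libraries with a doubled separator gave 520, 363 and, lower by over 3-fold, 73. The slope over the middle dogs gave 200 and 31. Within the GS-1 high cluster the counts were 1522 and 1125 with 218 higher by over 3-fold, and within the GS-1 low cluster 1793 and 1936 with 50 and 120 by over 3-fold. Host cell terms gave 1832, 2038, 51 and 32. Over 3-fold, groups of 62 dogs gave 42 and 88, MKI67 alone 55 and 77, and higher genes numbered 81 with edgeR and 78 with DESeq2. The trials, library groups, clusters and the middle hold fewer dogs, and the middle also spans a narrower range of the score. Elsewhere the cause was not tested.

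The share of the high GS-1 cluster stayed lower and passed under 6 other choices of groups, score or clusters. In subsets it did not pass within COTC021 (p = 0.0633, Fisher's exact test) or the libraries with a doubled separator (p = 0.363, Fisher's exact test). The share of COTC021, 23.4 percentage points higher in the high group, lost its call with groups of 62 dogs (16.1), MKI67 alone (19.1), TOP2A alone (17.0) and a TMM-scaled score (21.3).

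Values of the slope over the middle dogs are per SD of the score over all dogs, so their size does not compare with high minus low. Of 119 named genes, 106 kept their side of the threshold and their sign with edgeR, 110 with DESeq2, 111 with library totals and 117 without the library of lowest MKI67. In the slope over the middle dogs, 33 did and 70 lost their call, and 16 turned sign without passing: ALPL -0.71, SP7 -0.75, IBSP -0.65, RUNX2 -0.24, DLX5 -0.23, CCND1 -0.28, CDKN2D -0.17, ACTA1 0.19, CKM 0.23, FABP4 0.70, GZMK 0.01, MYBPC1 0.70, MYH1 0.02, MYH2 0.59, MYL2 0.08 and BCL2L1 0.02. In the libraries with a doubled separator these were ACP5 2.15, BGLAP 0.29, CDKN1A 0.54, CDKN2A 0.52, MYC -0.32, RB1 0.02 and SPP1 0.70. Within the GS-1 high cluster they were ACP5 0.56, CD2 0.23, CD3E 0.44, CXCR6 0.11, GBP5 0.99, IFIT3 0.02 and RB1 0.11, and within the GS-1 low cluster CCND1 -0.14, DLX5 -0.04 and NUSAP1 0.004. CD3E was at 0.08 with the GS-1 cluster as a term, CA12 at 0.24 with host cell terms, NUSAP1 at 0.07 and RB1 at 0.09 with library totals, CDKN2A at 1.14 with edgeR and 1.12 with DESeq2, and COL2A1 at -0.79 with edgeR. CCND1 was further -0.01 with the GS-1 cluster, -0.05 with only the high and low dogs, -0.13 in COTC022, -0.03 in the libraries without a doubled separator, -0.06 with groups of 62 dogs, -0.10 with TOP2A alone, -0.01 without muscle-rich libraries and -0.22 with host cell terms.

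The alternatives without the library of lowest MKI67, without libraries over 1000 CPM of muscle genes, with host cell terms and within GS-1 clusters were chosen after seeing the data.

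No paired analysis was possible because the dog numbers name single animals and each dog gave 1 library.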
